A study of Odorrana tormota with 4 samples.

Results

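Homeobox genes that mark regions of the brain were followed in the brain transcriptome of the concave-eared torrent frog, *O. tormota*. Members were chosen by name alone: annotated unigenes (assembled transcripts) whose Swiss-Prot gene symbol begins with HOXA, HOXB, HOXC or HOXD, or with OTX, EN, EMX, DLX, LHX, NKX, IRX, PAX or MEIS and a digit, or has the form of the sine oculis family (such as *SIX2*). Of 85 unigenes with such a symbol, 8 had a chicken or turkey protein as their best match in the NR database and were left out. This left 77 of the 197684 unigenes in the table, and the values of unigenes with the same symbol were added, which gave 59 genes. The RNA came from brains of adult wild frogs that had received no treatment. F1 and F2 each held RNA from 2 females, and M1 and M2 each held RNA from 4 males (n = 2 pools per sex). Sex and the number of frogs in a pool cannot be told apart. Abundance is given as FPKM (fragments scaled by unigene length and library size), and the sum over all unigenes was 669260 (F1) and 701492 (F2) in females, against 717478 (M1) and 696316 (M2) in males. The number of reads behind a single value is unknown. The neuronal gene *SNAP25*, a protein of synaptic vesicle release, stood at 958 (F1) and 720 FPKM (F2) in females, against 911 (M1) and 850 FPKM (M2) in males, so neural tissue was present in every pool.

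Homeobox genes encode transcription factors that give cells their position in the embryo, and many stay active in adult neurons of the same region. In vertebrates, EMX and DLX genes mark the telencephalon, OTX genes the forebrain and midbrain, and EN and PAX genes the midbrain and its border with the hindbrain. IRX genes are active from the thalamus backwards. HOX genes are active only from the hindbrain backwards, and those of a higher paralogue group (genes that hold the same place in the different HOX clusters) begin further back, in the spinal cord. The levels of these genes in a brain sample therefore depend on which regions the sample holds. In pooled tissue, fewer cells of a region and less RNA per cell cannot be told apart.

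Among the groups of several homeobox genes, HOX genes differed most between the pools. The sum of the 14 HOX genes was 1.28 (F1) and 5.41 FPKM (F2) in females, against 19.7 (M1) and 3.76 FPKM (M2) in males, a span of 15.4-fold. The lowest and the highest pool were of different sexes, but M2 lay between both female pools. M1 stood 5.25-fold above M2, and F2 stood 4.23-fold above F1. The 11 forebrain genes summed to 47.8 (F1) and 52.1 FPKM (F2) in females, against 48.2 (M1) and 65.2 FPKM (M2) in males, a span of 1.36-fold. The other groups of brain genes were also narrow. OTX genes of the forebrain and midbrain spanned 1.65-fold, EN and PAX genes of the midbrain and its border 1.33-fold, IRX genes 1.498-fold and genes active in several regions 1.48-fold. The 7 members better known from other tissues spanned 7.96-fold. HOX genes took 0.483% (F1) and 2.21% (F2) of the summed FPKM of all members in females, and 6.19% (M1) and 1.23% (M2) in males.

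**Figure D1:**
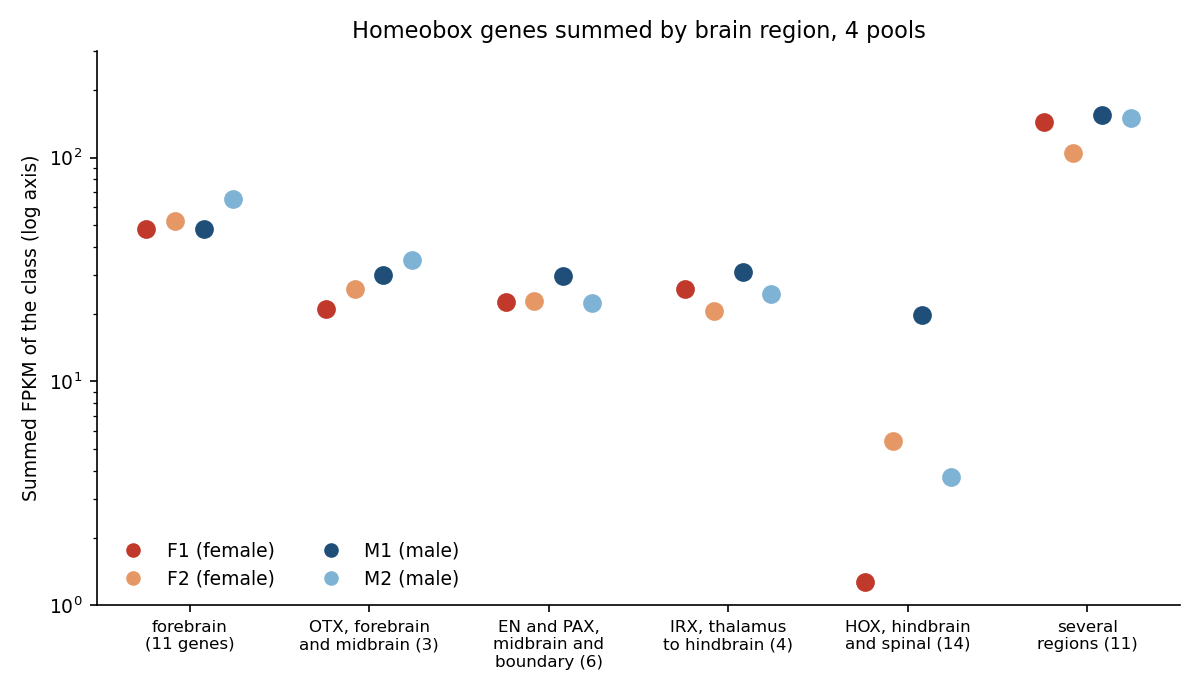
Summed FPKM (log axis) of 6 groups of homeobox genes in the female pools F1 and F2 and the male pools M1 and M2; each point is 1 pool. The HOX sum ran from 1.28 FPKM in F1 to 19.7 FPKM in M1, while the forebrain sum stayed between 47.8 and 65.2 FPKM.

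The HOX genes found belonged to paralogue groups 1 to 5, those of the hindbrain and the upper spinal cord. *HOXB3A*, the most abundant, was named after a zebrafish copy of *HOXB3* and stood at 0.181 (F1) and 1.405 FPKM (F2) in females, against 2.996 (M1) and 1.08 FPKM (M2) in males. *HOXB2*, which patterns hindbrain segments, was 0.578 (F1) and 0.748 FPKM (F2) in females, against 2.20 (M1) and 0.548 FPKM (M2) in males. *HOXA2*, known for cranial neural crest identity in mouse, was 0.239 (F1) and 0.443 FPKM (F2) in females, against 1.82 (M1) and 0.375 FPKM (M2) in males. M1 was the high pool in each of them, and M2 lay within or near the female range. *HOXD3* was listed at 0 in F1 and stood at 0.662 FPKM in F2, 1.84 FPKM in M1 and 0.399 FPKM in M2. *HOXB3* was 0.126 (F1) and 0.905 FPKM (F2) in females, against 1.49 (M1) and 0.235 FPKM (M2) in males, and *HOXA3* was 0.0242 and 0.385 FPKM against 1.10 and 0.341 FPKM. These group 3 genes shared the order F1, M2, F2, M1 from low to high. In *HOXD3* this order rested on a 382 bp unigene, at 0.626 FPKM in F2 and 0.211 FPKM in M1. Its 2053 bp unigene was 0 (F1) and 0.0362 FPKM (F2) in females, against 1.63 (M1) and 0.399 FPKM (M2) in males.

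Each gene of groups 4 and 5 was highest in M1, and some were listed above 0 in no other pool. *HOXC4* was listed at 0 and at 0.0962 FPKM in F1 and F2, against 1.94 FPKM in M1 and 0 in M2. *HOXA4* was 0.0293 (F1) and 0.0883 FPKM (F2) in females, against 1.70 (M1) and 0.118 FPKM (M2) in males. The value of *HOXA4* in F1 lay close to 0.0248 FPKM, the lowest value above 0 listed there for unigenes within 5% of its length. *HOXA5*, which marks upper cervical levels of the spinal cord in vertebrate embryos, was listed at 0 in F1, F2 and M2 and stood at 1.83 FPKM in M1, where both of its unigenes were found. *HOXC5* was likewise listed above 0 only in M1, at 0.283 FPKM. *HOXB4* was listed at 0 in F1 and M2 and stood at 0.495 FPKM in F2 and 0.911 FPKM in M1, and *HOXB5* at 0.0807 FPKM in F2 and 0.571 FPKM in M1. *HOXD4* was at 0 in F1 and F2 and stood at 0.645 and 0.216 FPKM in M1 and M2. How many reads lie behind values this low is unknown.

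The excess of M1 was larger in groups 4 and 5 than in groups 1 to 3. Over groups 4 and 5 together M1 stood 23.7-fold above M2, and over groups 1 to 3 it stood 3.46-fold above. By single group, M1 stood 4.36-fold above M2 in group 2, 3.62-fold in group 3 and 15.6-fold in group 4, and in group 5 the sum was 2.68 FPKM in M1 and listed at 0 in M2. F2 over F1 was likewise 25.9-fold over groups 4 and 5 and 3.73-fold over groups 1 to 3, although the level of F1 in groups 4 and 5, 0.0293 FPKM, rests on *HOXA4* alone. By cluster, the sum was highest in M1 in clusters A, B, C and D, at 6.84, 8.17, 2.23 and 2.48 FPKM. These ratios compare 1 pool with 1 pool and have no replicate check.

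**Figure D2:**
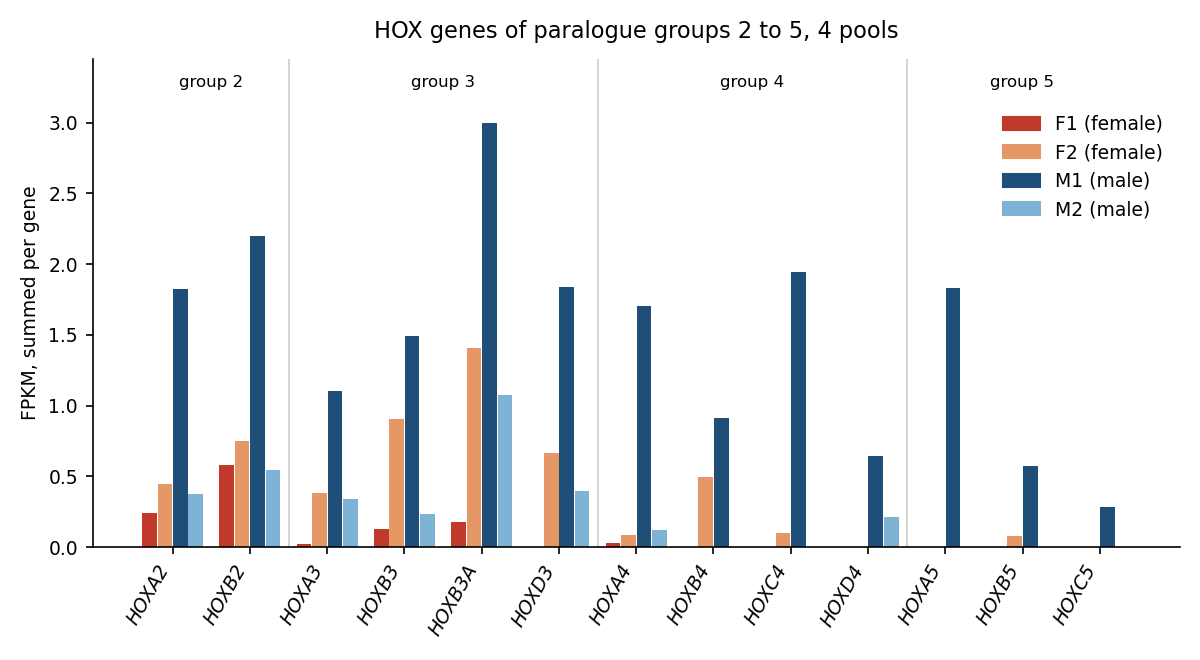
FPKM of 13 HOX genes of paralogue groups 2 to 5, ordered by group, in the female pools F1 and F2 and the male pools M1 and M2; each bar is 1 pool. M1 had the highest bar in all 13 genes plotted, and bars of F1 and M2 were absent or near 0 in groups 4 and 5, apart from *HOXD4* in M2 at 0.216 FPKM.

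M1 was the highest pool in 13 of 14 HOX genes, against 21.3% of all genes with a symbol and a value above 0 in some pool. It stood over 2-fold above each other pool, on the FPKM + 0.5 scale, in 6 of 14, against 2.27% of those genes. F1 was the lowest or level lowest pool in 13 of 14, against 38.2%. M1 was over 2-fold above M2 in 10 of 14, against 4.61%, and F2 was over 2-fold above F1 in 3 of 14, against 5.86%. The HOX genes lie in shared clusters and are not independent of each other. Among their 18 unigenes, from 344 to 2146 bp long, 16 were highest in M1. The 15 unigenes with an amphibian best match summed to 1.28 (F1) and 4.29 FPKM (F2) in females, against 17.5 (M1) and 3.76 FPKM (M2) in males, so the amphibian-matched unigenes alone put M1 4.65-fold above M2. The 5596 unigenes of the whole table with a chicken or turkey match were left out. They summed to 2227 (F1) and 2158 FPKM (F2) in females, against 5182 (M1) and 6056 FPKM (M2) in males. The part of bird sequence in the HOX levels was not tested.

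Most other genes listed for the hindbrain and spinal cord were also highest in M1, with smaller differences, and so were those of the midbrain. Of 14 genes listed, 12 were found, and 9 of these were highest in M1. Their sum was 47.2 (F1) and 42.3 FPKM (F2) in females, against 67.0 (M1) and 55.9 FPKM (M2) in males. All 8 midbrain and tectum genes listed were found and highest in M1, and they summed to 91.9 (F1) and 95.3 FPKM (F2) in females, against 119 (M1) and 108 FPKM (M2) in males. Of 9 cerebellar genes listed, 6 were found and 0 were highest in M1, with sums of 135 (F1) and 147 FPKM (F2) in females, against 128 (M1) and 119 FPKM (M2) in males. The high level of M1 was thus not particular to the hindbrain and spinal lists, and cerebellar genes did not share it. *SLC6A5*, the glycine transporter of inhibitory neurons in hindbrain and spinal cord, was 0.335 (F1) and 1.37 FPKM (F2) in females, against 2.47 (M1) and 0.513 FPKM (M2) in males, which is the same order of pools as for the HOX sum. *GLRA1*, a glycine receptor subunit, was 11.5 (F1) and 9.01 FPKM (F2) in females, against 18.0 (M1) and 12.5 FPKM (M2) in males. The keratin *KRT12*, the only one of 3 skin genes found, was 0.168 (F1) and 3.06 FPKM (F2) in females, against 126 (M1) and 0.970 FPKM (M2) in males. The part of skin or other adjoining tissue in the HOX levels of M1 was not tested.

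Of the 4 most abundant forebrain genes, *EMX1* varied most between the male pools, and it was lowest in M1, the pool with the highest HOX sum. *EMX1*, a marker of the pallium (the dorsal telencephalon), stood at 10.5 (F1) and 7.75 FPKM (F2) in females, against 3.29 (M1) and 11.7 FPKM (M2) in males. M2 was 3.56-fold above M1, and the female pools lay between them. Its 1409 bp unigene, the more abundant of a pair, carried this, with 9.34 (F1) and 6.95 FPKM (F2) in females, against 2.98 (M1) and 11.6 FPKM (M2) in males. The difference between the sexes did not pass the threshold (difference 0.49, SE 0.62, adjusted p = 0.832 in limma), and without M1 the difference was -0.36. *EMX2*, active in the pallium and beyond, was nearly level, with 10.2 FPKM in both female pools and 10.7 and 12.0 FPKM in M1 and M2. Its pair of unigenes carry the same component number in the assembly. *DLX6*, a gene of GABA neurons of the subpallium (the ventral telencephalon), was 13.4 (F1) and 11.2 FPKM (F2) in females, against 11.2 (M1) and 15.1 FPKM (M2) in males. *LHX2*, which is required for the early cortex and eye in mouse, was 9.25 (F1) and 9.28 FPKM (F2) in females, against 9.77 (M1) and 12.6 FPKM (M2) in males. M2 was the highest pool in 8 of the 11 forebrain genes, including *DLX6*, *EMX1*, *EMX2* and *LHX2*.

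Pallial genes outside the name rule shared the low level of M1. *FEZF2*, a factor of deep cortical projection neurons in mouse, was 5.40 (F1) and 5.49 FPKM (F2) in females, against 1.73 (M1) and 9.88 FPKM (M2) in males. *TBR1*, a marker of glutamatergic pallial neurons, was 6.56 (F1) and 3.91 FPKM (F2) in females, against 3.03 (M1) and 5.87 FPKM (M2) in males. *NEUROD6*, a factor of the same kind of neuron, was 119 (F1) and 82.2 FPKM (F2) in females, against 50.04 (M1) and 109 FPKM (M2) in males. Of 9 telencephalic genes listed, 8 were found, and their sum was 194 (F1) and 138 FPKM (F2) in females, against 91.8 (M1) and 184 FPKM (M2) in males. M1 was the lowest pool in 6 of these 8. No gene of this list passed the threshold between the sexes in limma.

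**Figure D3:**
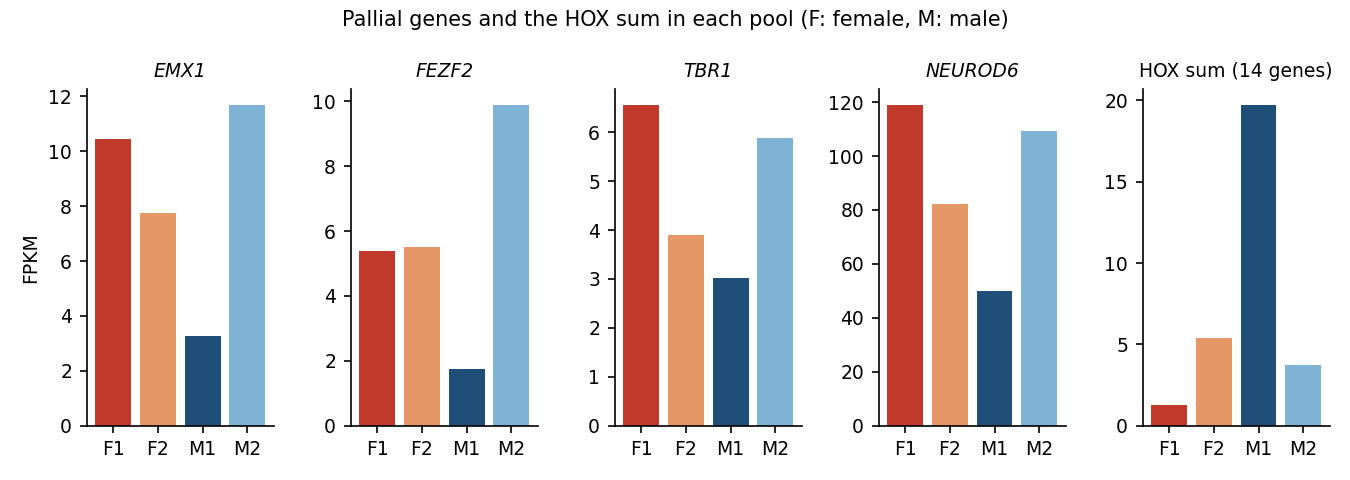
FPKM of *EMX1*, 3 other pallial genes and the HOX sum in the female pools F1 and F2 and the male pools M1 and M2, each panel with its own axis from 0. M1 had the lowest bar in the 4 pallial genes and the highest in the HOX sum, at 3.29 and 19.7 FPKM for *EMX1* and the HOX sum.

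The ratio of forebrain to HOX genes, which sets the front of the brain against the back, put F1 and M1 at opposite ends. The forebrain sum was 37.4 (F1) and 9.62 (F2) times the HOX sum in females, against 2.44 (M1) and 17.4 (M2) times in males. The ranges of the sexes overlapped, since F2 lay between the male pools. The forebrain sums of F1 and M1 were level, at 47.8 and 48.2 FPKM. The distance between F1 and M1 in the ratio therefore repeats that of their HOX sums, 1.28 and 19.7 FPKM. On the log2 scale the ratio averaged 4.25 in the female pools and 2.70 in the male pools, which differ by 1.54, while the single pools stood at 5.23 (F1), 3.27 (F2), 1.29 (M1) and 4.12 (M2). Single pools decided its size. Without F1 it was 0.56, without F2 2.52, without M1 0.13 and without M2 2.96. With EMX and DLX genes alone in the forebrain class, the ratio was 26.8 (F1) and 5.64 (F2) in females, against 1.33 (M1) and 10.8 (M2) in males. With each gene weighted equally (mean of log2(FPKM + 0.5)), M1 stayed the lowest pool at 0.97, but F1 and F2 were close at 2.08 and 2.12 and M2 was the highest at 2.48, with a difference of 0.38 between the sexes.

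The ventral forebrain genes *SIX6* and *NKX2-4* were low in F1. *SIX6*, a gene of the hypothalamus, pituitary and retina, was 1.36 (F1) and 6.67 FPKM (F2) in females, against 4.59 (M1) and 3.17 FPKM (M2) in males. *NKX2-4*, a close relative of the hypothalamic gene *NKX2-1*, was 0.0783 (F1) and 1.44 FPKM (F2) in females, against 0.674 (M1) and 1.22 FPKM (M2) in males. F1 was the lowest pool in both, and F2 was the highest. *NKX2-1* itself was found as 1 short unigene and was listed at 0 in F1 and M2, at 0.447 FPKM in F2 and at 0.897 FPKM in M1. Hypothalamic genes outside the rule were low in F1 as well. *PMCH*, the precursor of melanin-concentrating hormone, was 5.17 (F1) and 37.8 FPKM (F2) in females, against 55.5 (M1) and 31.9 FPKM (M2) in males, and *FEZF1* was 0.628 and 2.44 FPKM against 3.94 and 3.07 FPKM. F1 was the lowest pool in 5 of the 6 hypothalamic genes found of 10 listed, with the exception of *NPY*, which is also made in many other regions.

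Genes of organs next to the brain were high in F2. *SIX2*, known for mesenchyme and kidney progenitors in mouse, was 0.0689 (F1) and 7.15 FPKM (F2) in females, against 0.693 (M1) and 0.759 FPKM (M2) in males, so F2 alone stood apart. *OTX5*, a frog gene of the retina and pineal organ, was listed at 0 in F1 and stood at 3.71 FPKM in F2, 0.932 FPKM in M1 and 0.272 FPKM in M2. F2 stood over 2-fold above each other pool, on the FPKM + 0.5 scale, in 2 of 59 members, *SIX2* and *OTX5*, against 2.05% of all genes with a symbol. Photoreceptor and pineal genes (8 of 13 found) summed to 8.40 (F1) and 43.4 FPKM (F2) in females, against 13.8 (M1) and 10.7 FPKM (M2) in males. Skeletal muscle genes (10 of 12 found) summed to 5.54 (F1) and 481 FPKM (F2) in females, against 10.98 (M1) and 27.0 FPKM (M2) in males. Pituitary genes (8 of 11 found) summed to 84.7 (F1) and 6683 FPKM (F2) in females, against 1610 (M1) and 1088 FPKM (M2) in males. *POU1F1*, a pituitary transcription factor, was listed at 0 in F1. The part of these tissues in the levels of *SIX2*, *OTX5* and *SIX6* was not tested. *LHX4*, a gene of the pituitary and of motor neurons, was 0.180 (F1) and 0.307 FPKM (F2) in females, against 0.890 (M1) and 1.54 FPKM (M2) in males, too low to be tested by the filter used. The excess of the male pools rested on a 301 bp unigene, listed at 0 in F1 and F2, at 0.658 FPKM in M1 and at 1.31 FPKM in M2. Its 1553 bp unigene was 0.180 (F1) and 0.307 FPKM (F2) in females, against 0.232 (M1) and 0.230 FPKM (M2) in males.

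**Figure D4:**
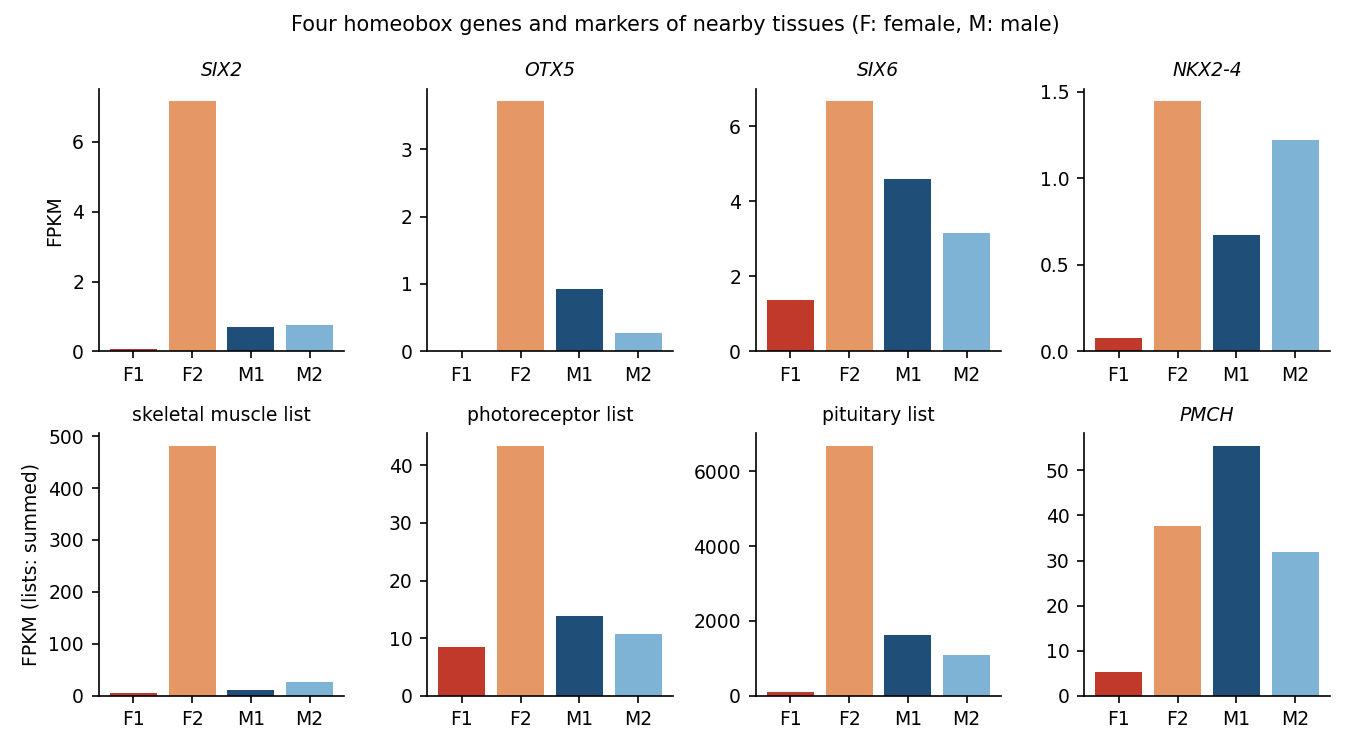
Upper row, FPKM of *SIX2*, *OTX5*, *SIX6* and *NKX2-4*; lower row, summed FPKM of skeletal muscle, photoreceptor and pituitary genes and FPKM of *PMCH*, in the female pools F1 and F2 and the male pools M1 and M2, each panel with its own axis from 0. F2 was the highest pool in all panels but *PMCH*, where M1 was highest at 55.5 FPKM, and F1 was the lowest in all 8 panels.

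The OTX sum was 21.1 (F1) and 26.0 FPKM (F2) in females, against 29.9 (M1) and 34.9 FPKM (M2) in males. *OTX2*, which keeps forebrain and midbrain identity and is also active in the choroid plexus and pineal organ, was 15.2 (F1) and 20.5 FPKM (F2) in females, against 23.2 (M1) and 27.2 FPKM (M2) in males. The pools of the sexes did not overlap, but the difference did not pass the threshold (-0.50, SE 0.20, adjusted p = 0.484 in limma). *OTX1B*, named after a zebrafish copy of *OTX1*, was 5.23 (F1) and 5.17 FPKM (F2) in females, against 6.35 (M1) and 7.39 FPKM (M2) in males (difference -0.37, SE 0.18, adjusted p = 0.544). A further short unigene named *OTX1* was at most 0.649 FPKM. The choroid plexus genes (3 of 5 found) summed to 2.31 (F1) and 6.50 FPKM (F2) in females, against 2.70 (M1) and 2.88 FPKM (M2) in males. Their sum was highest in F2, whereas *OTX2* was highest in M2. The part of the choroid plexus or pineal organ in the level of *OTX2* was not tested.

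At the border of midbrain and hindbrain, *EN2* was level, and *EN1* and *PAX8* were higher in each male pool than in either female pool. *EN2*, active in the midbrain and cerebellum, was 11.8 (F1) and 9.95 FPKM (F2) in females, against 10.3 (M1) and 8.34 FPKM (M2) in males. *EN1*, its partner in forming this border, was 1.06 (F1) and 0.409 FPKM (F2) in females, against 2.24 (M1) and 1.88 FPKM (M2) in males. The pools of the sexes did not overlap (difference -1.10, SE 0.39, unadjusted p = 0.0465, adjusted p = 0.446 in limma). *PAX8*, of hindbrain and spinal interneurons, was 0.654 (F1) and 0.416 FPKM (F2) in females, against 2.33 (M1) and 1.24 FPKM (M2) in males (difference -1.11, SE 0.39, unadjusted p = 0.0449, adjusted p = 0.442 in limma). *PAX8* reached 1 FPKM in the male pools alone and so passed the filter through the sex where it was high. Its difference and p-value are therefore not read as a lean to males. *PAX2*, of the same kind of interneuron, was 1.98 (F1) and 1.73 FPKM (F2) in females, against 4.57 (M1) and 2.57 FPKM (M2) in males, while *PAX5* was 2.17 and 1.28 FPKM against 2.21 and 1.45 FPKM. In *PAX2* and *PAX8* M1 was the high pool, as in the HOX genes.

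*PAX7*, which marks the optic tectum and also muscle stem cells, was read from a pair of unigenes that ordered the pools differently. Its 2276 bp unigene was 4.86 (F1) and 5.79 FPKM (F2) in females, against 7.63 (M1) and 6.21 FPKM (M2) in males. Its 896 bp unigene was 0.199 (F1) and 3.36 FPKM (F2) in females, against 0.399 (M1) and 0.650 FPKM (M2) in males. The excess of F2 in the sum therefore came from the short unigene, and F2 was also the pool with the high muscle genes. The part of muscle tissue in the level of this unigene was not tested.

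IRX genes were close across the pools. *IRX2* was 16.8 (F1) and 12.6 FPKM (F2) in females, against 19.9 (M1) and 14.9 FPKM (M2) in males, and *IRX1* was 7.95 and 7.00 FPKM against 9.85 and 8.07 FPKM. Both encode factors that set the front border of the thalamus and later mark midbrain and hindbrain. F2 was the lowest and M1 the highest pool in each, with differences of -0.24 (SE 0.23) and -0.24 (SE 0.18). *IRX4* was at most 0.957 FPKM and *IRX6* at most 0.720 FPKM.

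*MEIS2* and *MEIS1* were the most abundant members, and F2 was the low pool. MEIS proteins bind DNA together with HOX and PBX proteins and also act alone in the forebrain. *MEIS2* was 64.1 (F1) and 42.7 FPKM (F2) in females, against 61.1 (M1) and 65.5 FPKM (M2) in males, and *MEIS1* was 30.3 and 17.9 FPKM against 30.9 and 28.1 FPKM. F1 lay with the male pools in both, and the neuronal genes listed (4 of 5 found) summed to 1362 (F1) and 1058 FPKM (F2) in females, against 1341 (M1) and 1330 FPKM (M2) in males, with F2 again low. *MEIS3*, linked to the hindbrain in *Xenopus*, was 7.30 (F1) and 4.97 FPKM (F2) in females, against 11.2 (M1) and 6.99 FPKM (M2) in males. There M1 was the high pool, as in the HOX genes, although the ratio of M1 to the others was far smaller.

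Among the other genes active along the neural tube, *PAX6* was close between pools and *LHX1* and *NKX6-2* leaned to males. *PAX6*, of forebrain, cerebellar granule cells and eye, was 10.6 (F1) and 10.3 FPKM (F2) in females, against 10.2 (M1) and 12.9 FPKM (M2) in males. *LHX1* and *LHX5*, of diencephalic, cerebellar and spinal interneurons, had the same order of pools. *LHX1* was 8.45 (F1) and 8.28 FPKM (F2) in females, against 12.8 (M1) and 10.9 FPKM (M2) in males (difference -0.47, SE 0.16, unadjusted p = 0.0373, adjusted p = 0.420 in limma), and *LHX5* was 9.03 and 8.43 FPKM against 13.2 and 10.3 FPKM. *NKX6-2*, a ventral factor that is also made by oligodendrocytes, was 3.06 (F1) and 2.69 FPKM (F2) in females, against 5.30 (M1) and 4.47 FPKM (M2) in males (difference -0.67, SE 0.22, unadjusted p = 0.0340, adjusted p = 0.408 in limma). The oligodendrocyte genes (3 of 4 found) summed to 1149 (F1) and 1153 FPKM (F2) in females, against 1592 (M1) and 1200 FPKM (M2) in males. *NKX2-2*, a ventral and oligodendrocyte factor as well, did not share this, with 9.01 (F1) and 6.40 FPKM (F2) in females, against 6.84 (M1) and 8.89 FPKM (M2) in males. *PAX3*, of the dorsal neural tube, was 1.13 (F1) and 1.88 FPKM (F2) in females, against 1.51 (M1) and 1.37 FPKM (M2) in males, and *NKX6-1* was 1.42 and 0.857 FPKM against 1.76 and 1.33 FPKM.

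Among the weaker forebrain genes, *LHX8* was higher in each male pool than in either female pool, without passing the threshold. *LHX8*, a factor of cholinergic neurons of the basal forebrain, was 1.28 (F1) and 2.32 FPKM (F2) in females, against 3.61 (M1) and 4.48 FPKM (M2) in males (difference -1.01, SE 0.33, unadjusted p = 0.0355, adjusted p = 0.416 in limma). *SIX3*, of the anterior forebrain, was 1.07 (F1) and 0.753 FPKM (F2) in females, against 1.69 (M1) and 2.18 FPKM (M2) in males (difference -0.79, SE 0.31, adjusted p = 0.483). This difference rested on a 389 bp unigene, at 0.397 (F1) and 0 FPKM (F2) in females, against 1.07 (M1) and 1.27 FPKM (M2) in males. The 644 bp unigene of *SIX3* overlapped between the sexes, with 0.674 (F1) and 0.753 FPKM (F2) in females, against 0.614 (M1) and 0.915 FPKM (M2) in males. *LHX6*, of migrating GABA neurons, was 0.470 (F1) and 0.657 FPKM (F2) in females, against 0.696 (M1) and 0.965 FPKM (M2) in males. All of these are low values, and each of the 3 genes had its highest level in M2.

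No homeobox gene passed the test between the sexes. Of the 59 genes, 31 reached 1 FPKM in at least 2 pools and were tested, and 28 did not, among them every HOX gene but *HOXB3A*. limma called 0 of the 31 at an adjusted p under 0.05, against 0% of all 48997 genes and unannotated unigenes tested. The smallest adjusted p of a member was 0.408, that of *NKX6-2*. An unadjusted p under 0.05 was found for 5 of 31, *LHX8*, *EN1*, *PAX8*, *LHX1* and *NKX6-2*, against 11% of all tested. With males higher there were 5 of 31, against 6.92% of all tested, and with females higher 0 of 31, against 4.06%. The difference was over 2-fold with males higher in 4 of 31, against 6.28%, and with females higher in 0 of 31, against 3.43%. The lower male pool exceeded the higher female pool in 13 of 31 members, against 22.6%, and the reverse held in 0 of 31, against 18.6%. The estimate was on the male side in 28 of 31 members, against 52.2%, with a median of -0.33 against -0.02 over all tested. These shares leave out the 28 members under the filter. They include *PAX8*, which passed the filter through the male pools alone, in the 5, the 4, the 13 and the 28 of 31. For *HOXB3A* the difference was -1.04 (SE 0.71, adjusted p = 0.666), smaller than the span between F1 and F2 or between M1 and M2. In 10 of the 31 the difference between the sexes was larger than both differences within a sex. The share of all tested genes that met this was not counted, so it is not read as a trait of the members. With 2 pools per sex an exact permutation test cannot reach 0.05, so none was run.

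**Figure D5:**
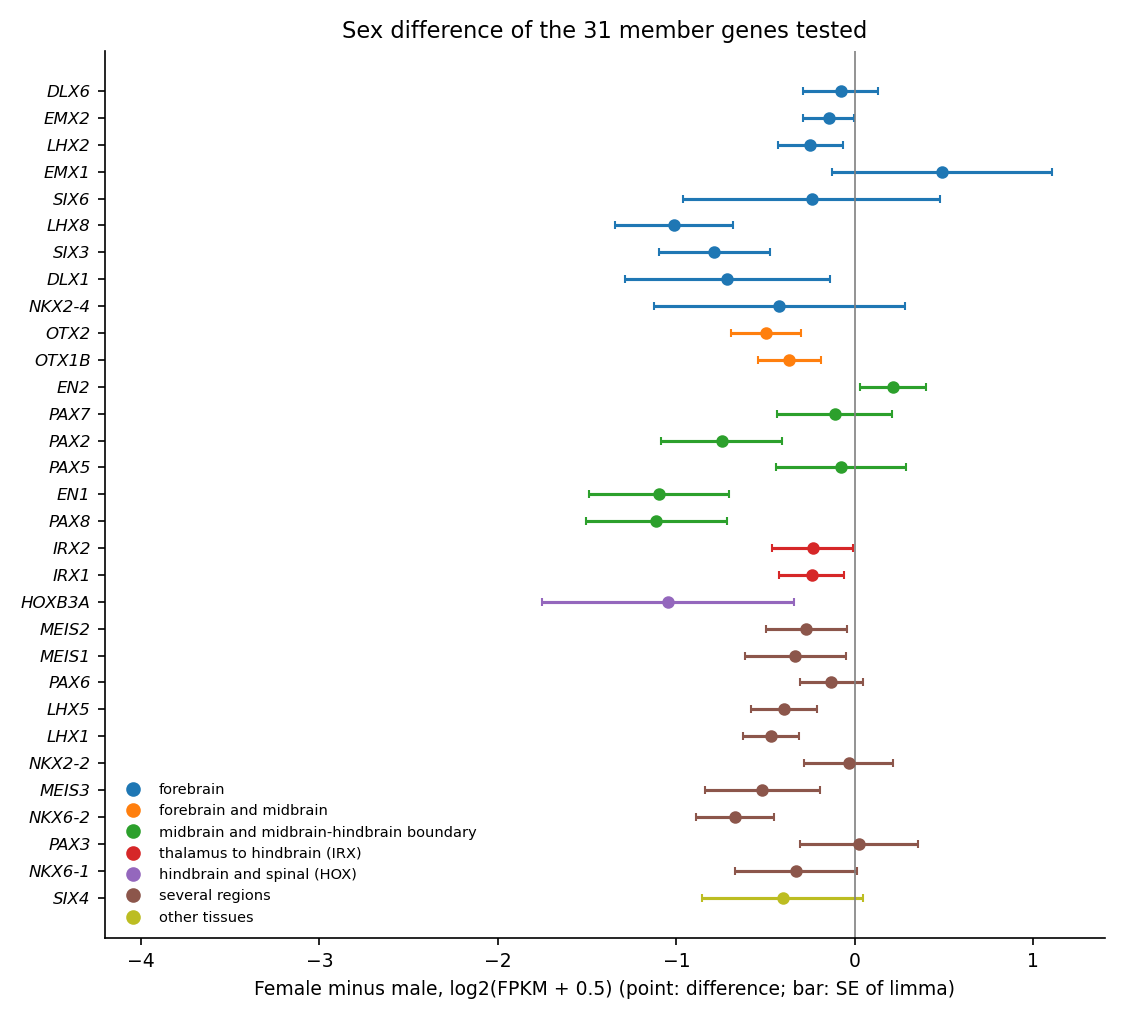
Difference between the female and the male pools in log2(FPKM + 0.5) for the 31 homeobox genes tested, grouped by region; points are estimates and bars are the SE from limma, and values below 0 are higher in males. Estimates ran from -1.11 for *PAX8* to 0.49 for *EMX1*, and none passed an adjusted p of 0.05.

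The remaining members were near the lower end of the values listed. *SIX4*, of cranial placodes and muscle, was 0.334 (F1) and 1.11 FPKM (F2) in females, against 1.15 (M1) and 0.927 FPKM (M2) in males. *NKX6-3*, *NKX1-2*, *NKX2-3*, *PAX9* and *PAX4* were under 0.5 FPKM in every pool, and *DLX4A* was listed above 0 only in M1, at 0.616 FPKM. *IRX10L* fell under the name rule but is a plant gene name and not that of a homeobox gene. It was at 0 in F1 and F2 and stood at 0.169 and 0.505 FPKM in M1 and M2. Of the 77 unigenes, 55 had an amphibian best match, and their lengths ran from 301 to 4204 bp.

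Leaving out unigenes with a chicken or turkey match removed the most abundant *DLX1* unigene and the only one of *LHX3*. A *DLX1* unigene of 2065 bp with a chicken match stood at 21.5 (F1) and 18.0 FPKM (F2) in females, against 15.4 (M1) and 22.8 FPKM (M2) in males. It was thus present in female pools, where only 2.75% (F1) and 2.84% (F2) of the unigenes with a chicken or turkey match were above 0. In the male pools 89.1% (M1) and 93.8% (M2) of them were above 0. The 2 *DLX1* unigenes kept summed to 0.244 (F1) and 1.36 FPKM (F2) in females, against 1.09 (M1) and 1.84 FPKM (M2) in males. With the chicken match kept, the *DLX1* difference between the sexes was 0.01 in place of -0.71. An *LHX3* unigene with a chicken match, a gene of pituitary and motor neurons, was 0.103 (F1) and 3.04 FPKM (F2) in females, against 1.20 (M1) and 0.695 FPKM (M2) in males, highest in F2, the pool with the highest pituitary sum. The others left out were a further *DLX1* unigene of at most 0.502 FPKM, 4 *SIX6OS1* unigenes, listed at 0 in both female pools, and 1 other unigene. Members that matched other birds were kept. Of these, the 344 bp *HOXA5* unigene was above 0 only in M1, at 1.12 FPKM. The 601 bp *DLX6* unigene was 13.4 (F1) and 11.2 FPKM (F2) in females, against 10.6 (M1) and 14.5 FPKM (M2) in males. The part of bird sequence in the levels of the members kept was not tested.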

How the data were processed

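RNA-Seq was run on 4 brain pools. Their FPKM values are those the authors deposited, and the paper's methods name Trinity, TGICL and Bowtie2. Per the labels, cutadapt, FastQC, Salmon and edgeR were also used, so which tool gave the values is unsure. Reads could not be recovered from low values, and no counting error is given. A single line of the table was emptied, and no sequence was used.

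Unigenes with *Gallus* or *Meleagris* in the NR match were dropped, and FPKM were summed per gene symbol (case and *Xenopus* copy suffixes ignored). The 48997 genes or unannotated unigenes that reached 1 FPKM in 2 or more pools were fitted as log2(FPKM + 0.5), which understates changes of low genes, with limma 3.58.1 in R 4.3.3 (eBayes with a trend, sex as the only term). P-values were adjusted by Benjamini-Hochberg over all of them and measure the spread between pools. Differences are female minus male. Sums and ratios carry no test. The fit was checked on simulated data.

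Members, groups and marker lists were chosen with earlier results of these data known. By rule, values per pool were given for up to 8 members per group and 4 genes per marker list with the highest mean, and for members with an unadjusted p under 0.05. *HOXA5*, *HOXB4*, *HOXB5*, *HOXC5*, *HOXD4*, *LHX6*, *NKX2-1*, *NKX2-4*, *NKX6-1*, *PAX3*, *SLC6A5*, *FEZF2*, *TBR1* and *POU1F1* fall outside it and were added after their values were seen. Some genes are not reported here. Alternatives changed the number added, filter, scaling, prior, replicate block, pools, unigenes and species matches.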

Additional observations from a re-analysis of the deposited data

How the results depend on the processing

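The count of members called between the sexes was 0 under all 17 alternatives, and so was that over all genes. The count of all genes at an unadjusted p under 0.05 was 5378. It was 21088 with no filter, 1656 at a mean of at least 5 FPKM, 3395 without M2, and 1032 with amphibian matches alone. Of those 1032, 620 were higher in females and 412 in males, against 1988 and 3390 of the 5378. The smallest adjusted p over all genes ranged from 0.0668 to 0.498 over the alternatives. The replicate block also called 0 members and 0 genes, with 4165 at an unadjusted p under 0.05, and the ratio of forebrain to HOX genes differed by 1.54 with the block as without it. The labels share replicate numbers but give no pairing. Same-numbered pools deviated from their sex mean with a correlation of -0.108, so the block was also crossed, a choice made after seeing the data, with 0 calls and 5322 genes at an unadjusted p under 0.05. The difference of the forebrain to HOX ratio kept its sign and ranged from 0.13 to 2.96 when 1 pool was left out, and the HOX sum from -2.91 to -0.51. With bird matches kept, which adds *LHX3*, the sum of the group with *LHX4* differed by -1.15 in place of -2.31. Leaving out 1 pool turned the sign of *DLX6*, *EMX1*, *SIX6*, *PAX7*, *PAX5*, *MEIS1*, *MEIS2*, *PAX6*, *NKX2-2*, *SIX4*, *NKX2-4* and *PAX3*. For *NKX2-4*, F2 alone lay above both male pools, and for *PAX3*, F1 alone lay below both. Amphibian matches alone turned the sign of *EMX2*. HOX paralogue groups 5 and above were listed at 0 in F1 and M2 and gave no ratio.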
